A study of Mus musculus with 8 samples.

Results

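The Ly6 surface proteins and Plac8 were followed in mouse CD8+ T cells treated with DADA or with its solvent. The 8 genes were chosen by symbol, namely Ly6a, Ly6c1, Ly6c2, Ly6d, Ly6e, Ly6i, Ly6k and Plac8, with their difference between the treatments already known. All 8 were found among the 22520 rows of the expression table. The difference between DADA and DMSO is therefore described for these genes and not tested.

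Bulk RNA sequencing covered 8 libraries, 4 treated with DMSO and 4 with DADA. CD8+ T cells were taken from spleens of WT mice by negative magnetic selection, and both groups were kept on antibodies to CD3 and CD28 with IL-2 until day 6, a model of persistent T cell receptor stimulation in vitro. DADA, diisopropylamine dichloroacetate, is an inhibitor of the pyruvate dehydrogenase kinases. It was added at 40 µM from day 3, and the control cells received the same volume of DMSO. The labels give no strain or age for these libraries and do not say whether the 4 libraries of a group came from separate mice, so the spread between them may be technical. The stimulation began before DADA was added, so unstimulated cells were no part of the comparison.

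Ly6 proteins carry a compact domain of 3 loops held by disulfide bonds, the Ly6/uPAR (LU) domain, and most are tied to the outer face of the plasma membrane by a glycosylphosphatidylinositol (GPI) anchor. Several of the mouse genes lie side by side in 1 cluster, and some are known to be induced by interferons. On T cells, Ly6A (Sca-1) and Ly6C are widely used surface markers of activated, effector and memory states. Plac8 (onzin) is a small cysteine-rich protein of another family, without an LU domain, which is also common in activated and memory lymphocytes.

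Promoter sequences from RefSeq (GRCm38.p6) were at hand for 3 of the 8 members, the close relatives Ly6c1 and Ly6c2 and the unrelated Plac8. They are shown because Ly6c1 and Ly6c2 have nearly the same coding sequence but very different transcript levels here, and Plac8 had the largest difference of the abundant members. Each run covers 250 bases before to 50 after an annotated start, all on the minus strand, at chr15:75048788-75049087, chr15:75111922-75112221 and chr5:100572156-100572455. Capitals mark TATAAA, the only one of the 3 searched motifs that was found.
Ly6c1: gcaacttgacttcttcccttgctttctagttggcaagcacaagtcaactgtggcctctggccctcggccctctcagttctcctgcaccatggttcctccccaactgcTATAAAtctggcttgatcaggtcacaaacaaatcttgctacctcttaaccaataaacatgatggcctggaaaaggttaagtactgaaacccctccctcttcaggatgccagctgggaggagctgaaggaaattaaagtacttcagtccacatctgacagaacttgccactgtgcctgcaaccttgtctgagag
Ly6c2: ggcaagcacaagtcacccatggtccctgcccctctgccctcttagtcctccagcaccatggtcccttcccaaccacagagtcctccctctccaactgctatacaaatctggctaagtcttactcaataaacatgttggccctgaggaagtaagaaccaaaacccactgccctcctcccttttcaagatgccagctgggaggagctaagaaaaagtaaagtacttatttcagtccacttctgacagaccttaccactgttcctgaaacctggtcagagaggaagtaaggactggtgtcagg
Plac8: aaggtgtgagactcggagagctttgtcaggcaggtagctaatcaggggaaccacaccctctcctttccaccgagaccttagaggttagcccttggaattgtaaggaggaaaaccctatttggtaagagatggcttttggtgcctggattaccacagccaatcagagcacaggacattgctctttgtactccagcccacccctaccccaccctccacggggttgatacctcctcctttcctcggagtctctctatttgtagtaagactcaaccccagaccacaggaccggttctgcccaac

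The motifs searched on both strands were GAAANNGAAA (interferon-stimulated response element), TTCNNNGAA (gamma-activated site) and the TATA box (TATAAA). Over all 32851 promoter windows of 300 bases, 3.44% held the first, 8.30% the second and 13.6% the third. The Ly6c1 window held 1 TATAAA, which began 143 bases before the annotated start. None of the 3 motifs was found in the Ly6c2 and Plac8 windows, and none in the windows at a second annotated start of each of the 3 genes, which says only that these letters do not occur there. The Ly6c1 and Ly6c2 windows were identical at 208 of 266 aligned bases (78.2%).

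Ly6a, which encodes Sca-1, was the member with the highest level in DADA-treated cells. Its level was 121, 117, 118 and 117 FPKM in the DMSO libraries and 333, 349.6, 316 and 344 FPKM in the DADA libraries. FPKM counts fragments relative to transcript length and library size, so levels of different genes are compared per length. Every DADA library was far above every DMSO library, and the groups did not overlap. The means were 118 ± 1.66 and 336 ± 14.7 FPKM (SD, n = 4 each), a ratio of 2.84, which ran from 2.62 to 2.98 over single pairs of libraries. On the log2(FPKM + 1) scale the difference was 1.49 (SE 0.031). Among the 10666 genes with at least 1 FPKM in 4 or more libraries, Ly6a moved from rank 527 to rank 171 by level.

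Ly6c2, 1 of the 2 genes for the Ly6C antigen, was also higher with DADA. The DMSO libraries held 82.8, 78.5, 79.0 and 79.0 FPKM, and the DADA libraries 136, 141, 135 and 135 FPKM. Again no DADA library fell within the DMSO range, although the gap was narrower than for Ly6a. The means were 79.8 ± 1.99 and 137 ± 2.56 FPKM (SD, n = 4 each), a ratio of 1.71 (1.63 to 1.79 over pairs of libraries) and a log2 difference of 0.77 (SE 0.0246). Library DMSO 1 stood above the other 3 DMSO libraries, which lay within 1 FPKM of each other.

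Plac8 had the largest difference among the abundant members. The control libraries held 51.5, 49.3, 51.1 and 48.8 FPKM, against 291, 301, 283 and 296 FPKM after DADA. The groups were far apart, with little spread inside either. The means were 50.2 ± 1.32 and 293 ± 7.72 FPKM (SD, n = 4 each), a ratio of 5.83 (5.49 to 6.16) and a log2 difference of 2.52 (SE 0.027). By level, Plac8 went from rank 1583 to rank 191 of the 10666 genes. By difference it stood at rank 48 from the highest, ahead of Ly6a at 169 and Ly6c2 at 585.

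Ly6e, a broadly expressed family member known for its role in virus entry, was the exception among the abundant members. Its level was 133, 136, 136 and 131 FPKM with DMSO and 102, 103, 101 and 99.4 FPKM with DADA. All 4 DADA libraries lay below all 4 DMSO libraries. The means were 134 ± 2.51 and 101 ± 1.45 FPKM (SD, n = 4 each), so that the DMSO mean was 1.32 times the DADA mean, and the log2 difference was -0.40 (SE 0.0218). Ly6e was the highest member in DMSO-treated cells and only the fourth in DADA-treated cells. In bulk samples like these, fewer cells of a type and less RNA per cell cannot be told apart, and this holds for every member.

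**Figure D1:**
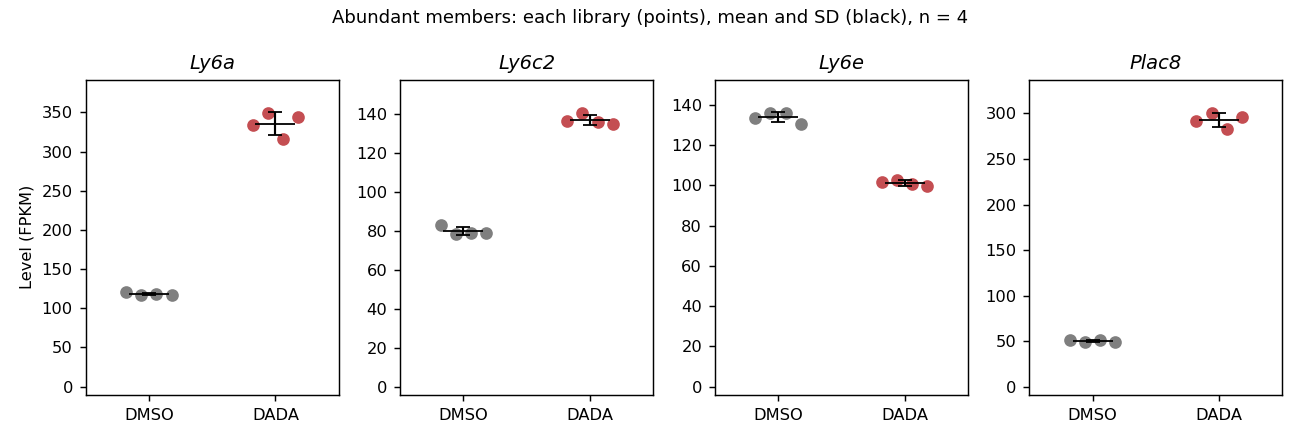
Levels of the 4 abundant members in each library, as FPKM on axes that include 0, with points for the 4 DMSO (grey) and the 4 DADA (red) libraries and black lines for the mean and SD of each group. Ly6a (118 to 336 FPKM), Ly6c2 (79.8 to 137) and Plac8 (50.2 to 293) were higher in every DADA library and Ly6e (134 to 101) was lower, with no overlap for any of the 4. Over all 10666 genes tested, the groups did not overlap for 28.4% with DADA higher and for 32.2% with DADA lower.

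The other 4 members were near or under the detection limit. Since the files hold FPKM and no counts, the number of fragments behind a low value was estimated from the worth of 1 fragment in each library, and it covers counting error only. Ly6c1, the other Ly6C gene, was at 0.139, 0.0861, 0 and 0 FPKM with DMSO and at 1.88, 0.840, 1.53 and 1.33 FPKM with DADA. The lowest DADA library was above the highest DMSO library, and the estimates were at most 1.74 fragments per DMSO library and 13.0 to 27.7 fragments per DADA library.

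Ly6i had 0.0885, 0.256, 0 and 0.0933 FPKM in the control libraries, against 0.597, 0.574, 0.651 and 0.419 FPKM after DADA. Here too the groups did not overlap, with up to 4.80 estimated fragments in a DMSO library and 8.98 to 12.2 in the DADA libraries. Neither Ly6c1 nor Ly6i passed the filter of 1 FPKM in at least 4 libraries, because each was under 1 FPKM in at least 5 of the 8, so no ratio of means is given. Their log2 differences appear below only to show how far they depend on the processing.

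Ly6k was at 0.615, 0.992, 1.62 and 0.891 FPKM with DMSO and at 1.02, 1.54, 1.23 and 1.09 FPKM with DADA. The groups overlapped, with the highest value of all in a DMSO library. Its log2 difference was 0.15 (SE 0.139), and it passed the filter through 1 DMSO and 4 DADA libraries. Ly6d, better known from B cell progenitors and epithelia, was at 0.0868, 0.0787, 0.1002 and 0 FPKM with DMSO and at 0, 0, 0.175 and 0 FPKM with DADA. No library held more than about 1.97 estimated fragments of Ly6d, so no difference was detectable at this depth.

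**Figure D2:**
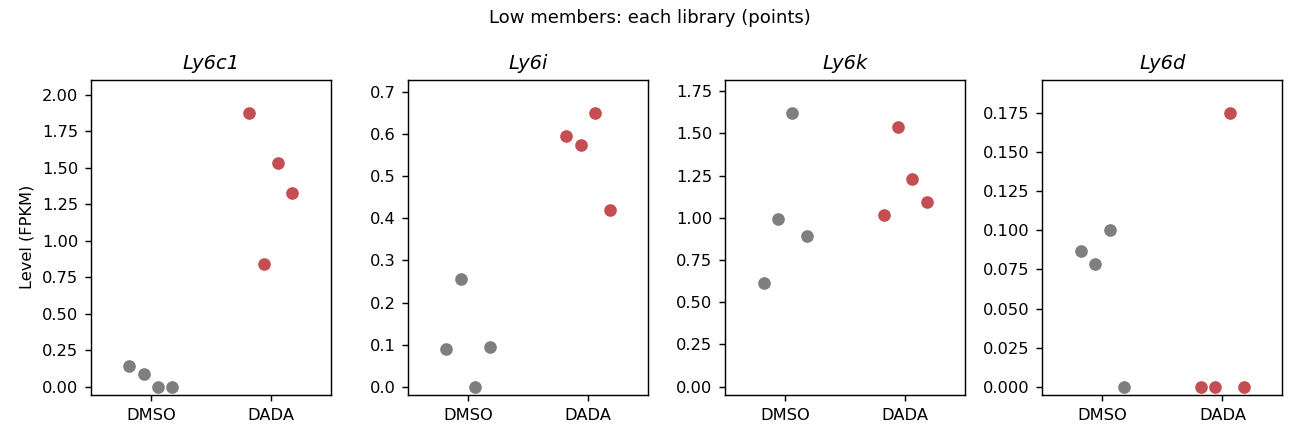
Levels of Ly6c1, Ly6i, Ly6k and Ly6d in each library, in FPKM, with points for libraries of the 2 groups. Ly6c1 and Ly6i lay higher in all 4 DADA libraries, Ly6k overlapped between the groups, and Ly6d was at or near 0 throughout.

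Fragments from Ly6c1 and Ly6c2 could in part be assigned to either gene. Their longest open reading frames in GENCODE M21, of 396 bases each, were identical at 387 bases (97.7%). Of all 150-base windows, the length of 1 sequenced read, 2.29% of those in Ly6c1 and 5.44% of those in Ly6c2 also occurred in the other gene, whereas no such window was shared for the other 6 members. With windows of 50 bases, the share was 31.2% for Ly6c2, 25.6% for Ly6c1, 17.7% for Ly6a, 3.20% for Ly6i and 0 for Ly6d, Ly6e, Ly6k and Plac8. Ly6a was closest to Ly6i, with identical bases over 86.4% of the longer reading frame, and much less like Ly6e, with 58.4% on the same measure. Ly6c1 is thus an uncertain value beside its abundant relative, and made up 0.0693% of the summed Ly6c1 and Ly6c2 level with DMSO and 1.01% with DADA. If every Ly6c1 fragment belonged to Ly6c2, the log2 difference of the sum would be 0.78.

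The make-up of the Ly6 transcripts differed between the treatments. The 7 Ly6 members summed to 333 ± 4.16 FPKM with DMSO and to 577 ± 16.6 FPKM with DADA (SD, n = 4 each). Ly6e was the main Ly6 transcript in DMSO-treated cells, with 40.2% ± 0.627 of that sum, and held 17.5% ± 0.445 in DADA-treated cells. Ly6a held 35.5% ± 0.301 with DMSO and 58.2% ± 0.989 with DADA, so that the ratio of Ly6a to Ly6e was 0.884 with DMSO and 3.32 with DADA. The share of Ly6c2 was 23.9% ± 0.443 and 23.7% ± 0.482, ranges that overlapped, since Ly6c2 differed by about as much as the sum did. Plac8, set against Ly6a, had a ratio of 0.424 with DMSO and 0.872 with DADA.

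**Figure D3:**
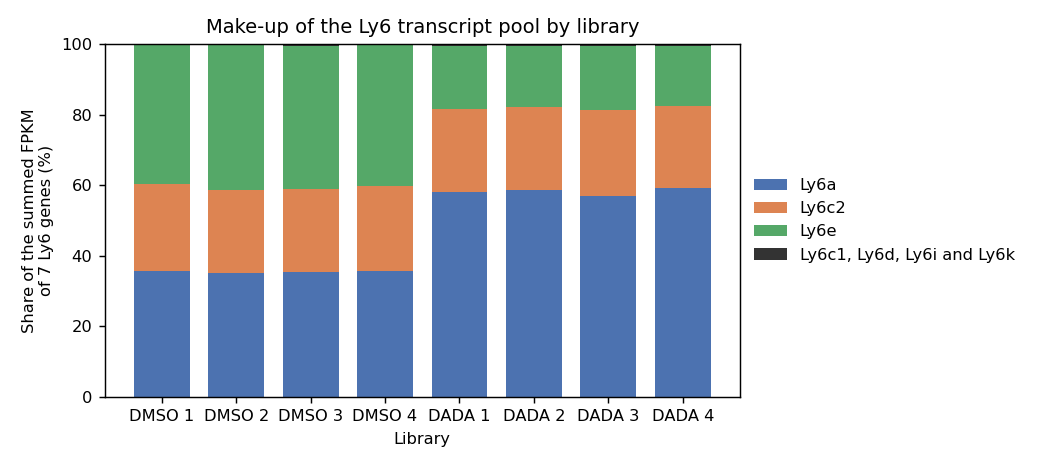
Share of each Ly6 member in the summed FPKM of the 7 Ly6 members, in percent, as 1 stacked bar per library, with Ly6c1, Ly6d, Ly6i and Ly6k drawn as 1 thin segment. Ly6e was the largest segment in the DMSO libraries (40.2% on average) and Ly6a in the DADA libraries (58.2%), while Ly6c2 stayed near 24% in both.

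The order of the levels followed from these values. With DMSO it was Ly6e, Ly6a, Ly6c2, Plac8 and Ly6k, then Ly6i, Ly6d and Ly6c1, of which only the last 3 could not be separated beyond the spread between libraries. With DADA it was Ly6a, Plac8, Ly6c2, Ly6e, Ly6c1, Ly6k, Ly6i and Ly6d, with overlap between Ly6c1 and Ly6k alone. The spread inside groups was small for the abundant members. The SD as a share of the mean was 1.40% in DMSO and 4.37% in DADA libraries for Ly6a, 2.50% and 1.87% for Ly6c2, 1.88% and 1.43% for Ly6e, and 2.63% and 2.64% for Plac8. The median over 5880 genes with at least 10 FPKM was 3.54% with DMSO and 3.47% with DADA. Library DADA 2 was the highest DADA library for all 4 abundant members, Ly6e included.

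These members were set against all genes tested. With limma, 66.2% of the 10666 genes were called at an adjusted p under 0.05, with 30.9% of all genes tested called higher and 35.3% called lower with DADA, and the median log2 difference over all genes was -0.02. Of the 8 members, 5 passed the filter and 4 of these were called, 3 higher and 1 lower. The groups did not overlap, with DADA higher, for 28.4% of the genes tested, and with DADA lower for 32.2%. Because this contrast chose the members, nothing is read from their counts.

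**Figure D4:**
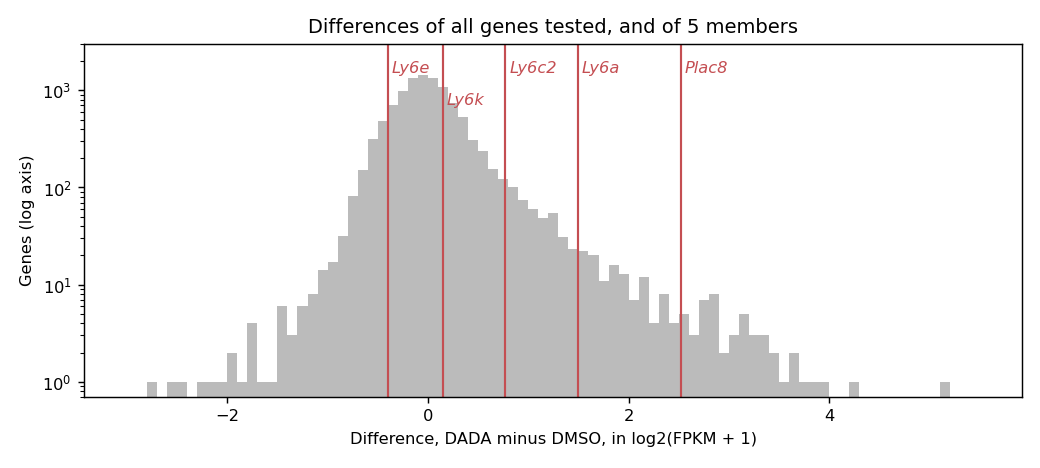
Distribution of the log2(FPKM + 1) difference, DADA minus DMSO, over the 10666 genes tested, with the number of genes on a log axis and red lines for the 5 members that passed the filter. Plac8 (2.52) and Ly6a (1.49) lay in the upper tail, Ly6c2 at 0.77, Ly6k at 0.15 and Ly6e at -0.40, where the median gene was at -0.02.

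Genes most like each member were found from the 8 log2(FPKM + 1) values, each taken relative to the gene's own DMSO mean, as the root mean square (rms) difference over the 8 libraries among 10661 genes. This is a description, and the points share the 2 groups. For Ly6a the nearest were Phf11b (rms 0.0458) and Anxa2 (0.0460), with 23 genes, Phf11b included, within double the distance of Phf11b. For Plac8 they were Oas3 (0.0332), an interferon-induced oligoadenylate synthetase, and Cd24a (0.0386). Within double the distance of Oas3 lay 4 genes, Oas3 included. With DMSO, Oas3 and Cd24a were at 5.42 and 2.95 FPKM, far below the 50.2 FPKM of Plac8. Since the pseudocount of 1 understates differences of low genes, their likeness to Plac8 depends on it. Ly6c2 was closest to Ccr7 (0.00956), the chemokine receptor for homing to lymph nodes, and then to the adhesion receptor Cd2 (0.0280). Ccr7 went from 266 to 455.0 FPKM, and no further gene lay within double its distance. For Ly6e the nearest was Las1l (0.0173), which acts in ribosome synthesis, with 49 genes, Las1l included, within double its distance. Ly6k had no close neighbour, with Dnaaf9 at 0.0825 and Ninj2 at 0.0952, and 85 genes, Dnaaf9 included, within double the distance of Dnaaf9.

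The rest of the LU family was nearly silent. Of 39 other LU-domain genes in the table, 25 were at 0 in all 8 libraries and 13 more did not pass the filter, none of these above 0.890 FPKM in any library. Plaur, the urokinase receptor, was the 1 gene that passed. It was at 6.99, 7.96, 5.98 and 6.86 FPKM with DMSO and at 7.67, 7.08, 7.51 and 7.47 FPKM with DADA, ranges that overlapped, with a log2 difference of 0.09 (limma, adjusted p = 0.271). Without the library DMSO 2 it was called higher, at a log2 difference of 0.15. Ly6g, the neutrophil marker of the same cluster, was at 0 in 3 DMSO libraries and at 0.102 FPKM in the other one, and at 0.313, 0, 0.213 and 0.262 FPKM with DADA. The 2 other PLAC8-domain genes, Plac8l1 and Cnfn, were at 0 in every library.

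Along chromosome 15, the members are ordered Ly6d, Ly6k, Ly6e, Ly6i, Ly6a, Ly6c1 and Ly6c2 in GENCODE M21, with Gml, Gml2, Cyp11b1 and Cyp11b2 between Ly6k and Ly6e, while Plac8 lies on chromosome 5. Ly6e, the abundant member that was lower with DADA, is next to Ly6i. Ly6i, Ly6a, Ly6c1 and Ly6c2, which come next in that order, were higher in every DADA library than in any DMSO library. Over all genes tested, 28.4% were likewise higher without overlap. Ly6i and Ly6c1 did not pass the filter, so only Ly6a and Ly6c2 of these are among the genes tested. Of the 50-base windows of Ly6i and Ly6c1, 3.20% and 25.6% also occurred in another gene, Ly6a among them. Of 27 neighbours outside the family, within and around the cluster, 16 passed the filter, 6 of which rose and 9 fell by limma. Called were 93.8% of the 16, beside 66.2% of all genes tested. The 16 had a median log2 difference of -0.16, beside -0.02 over all genes. Grina (1.298, adjusted p = 4.24e-09) and the ADP-ribosyltransferase Parp10 (1.204, adjusted p = 1.50e-09) rose most, and the mitochondrial topoisomerase Top1mt (-0.79, adjusted p = 1.91e-07) and the proline synthesis enzyme Pycr3 (-0.56, adjusted p = 2.28e-06) fell most.

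**Figure D5:**
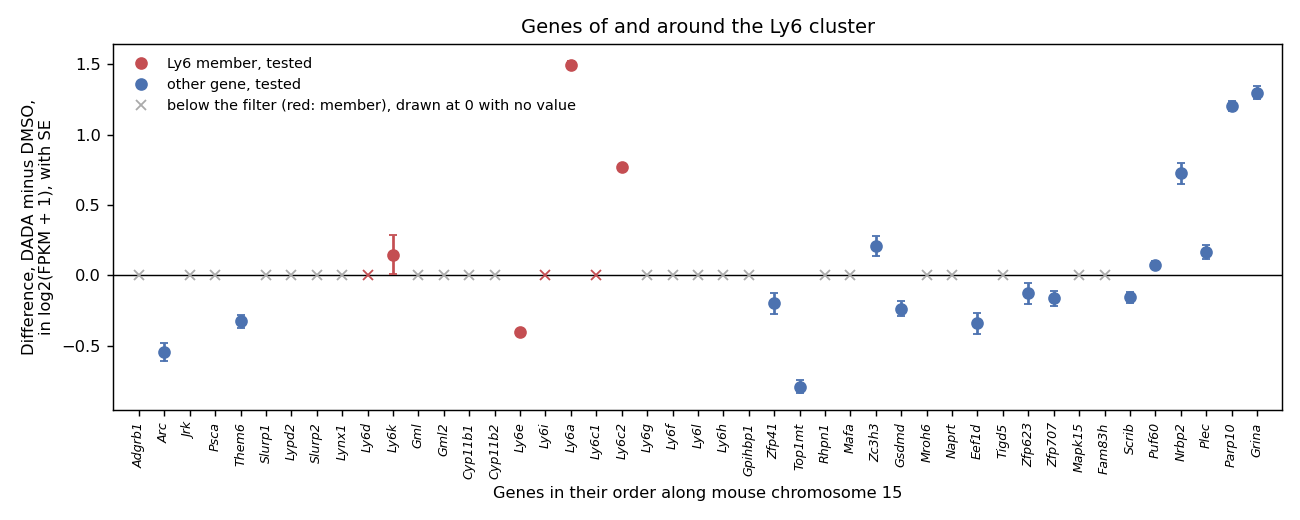
Log2(FPKM + 1) difference, DADA minus DMSO, of the genes around the Ly6 cluster in their order along the chromosome, with members in red, other genes in blue, SE as error bars, and genes under the filter as crosses at 0 that stand for no value. Ly6a (1.49) and Ly6c2 (0.77) stand above 0 and Ly6e (-0.40) below, and more distant neighbours lie on both sides, from Grina (1.298) to Top1mt (-0.79).

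Enzymes that build and attach the GPI anchor showed no common direction. Of 32 genes in the table, 30 passed the filter, 7 rose and 8 fell, and their median log2 difference was -0.00. By limma, 50% of the 30 were called, beside 66.2% of all genes tested, which had a median of -0.02. Pigv (0.47, adjusted p = 0.00160 by limma), a mannosyltransferase, and Pgap3 (0.42, adjusted p = 1.00e-04), which remodels the lipid of the anchor, rose most. Pigw (-0.58, adjusted p = 2.65e-05), which acylates inositol, and Arv1 (-0.47, adjusted p = 2.99e-05) fell most. All 4 differences were smaller in size than that of Ly6c2 and larger than that of Ly6e.

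Of 36 other GPI-anchored surface proteins, 17 passed the filter. By limma, 9 of these rose and 2 fell, and the median log2 difference was 0.19. That is 64.7% called, beside 66.2% of all genes tested, which had a median of -0.02. Cd24a, a heavily glycosylated surface protein, rose from 2.95 to 22.01 FPKM (log2 2.54, adjusted p = 3.06e-11), a log2 difference close to that of Plac8. Sema7a, a GPI-linked semaphorin, rose from 9.03 to 29.7 FPKM (1.61, adjusted p = 1.72e-10). Izumo1r, the folate receptor 4 of T cells, fell from 30.5 to 8.36 FPKM (-1.75, adjusted p = 4.97e-09), and the glypican Gpc1 fell by 0.34 on the log2 scale (adjusted p = 4.12e-04). The share called was near that of all genes tested, but its split by direction was not. Called higher were 9 of the 17, beside 30.9% of all genes tested, and called lower 2, beside 35.3%. The list was chosen with earlier results of these data known and no set test was run, so nothing is read from its directions.

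Several members are known interferon targets, so the interferon receptors and their signalling genes were counted. Of 16 genes, 15 passed the filter, 9 rose and 3 fell by limma, and the median log2 difference was 0.19. Called were 80% of the 15, beside 66.2% of all genes tested, which had a median of -0.02. Usp18, a feedback inhibitor that is itself strongly interferon-induced, rose by 4.27 on the log2 scale (adjusted p = 4.75e-11), from at most 0.919 FPKM in the DMSO libraries to at least 29.9 FPKM in the DADA libraries. Stat2 rose from 11.9 to 32.4 FPKM (1.38, adjusted p = 7.74e-11). Ifnar1, a subunit of the receptor for type I interferon, fell from 41.4 to 31.9 FPKM (-0.37, adjusted p = 1.49e-06), and Irf1 fell by 0.18 on the log2 scale (adjusted p = 2.96e-04). Their part in the members' differences was not tested.

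Ly6a, Ly6c2 and Plac8 are also abundant in myeloid, endothelial or plasmacytoid dendritic cells, and Ly6d in B cells, so markers of these cells were measured. CD8 T cell markers passed the filter in 7 of 7 genes in the table and all 7 rose, with summed levels of 901 to 921 FPKM with DMSO and 1139 to 1170 FPKM with DADA. Monocyte and neutrophil markers summed to 5.03 to 5.64 and 8.43 to 9.56 FPKM, with Cd68 and Ccr2 the 2 of 12 that passed the filter and rose, and Csf1r, Csf3r, S100a8 and S100a9 at 0 in every library. B cell markers summed to 2.78 to 3.78 and 3.23 to 4.40 FPKM, with 1 of 8 passing the filter and none called, and Pax5 and Blk were at 0. Within that list Ebf1, which was under the filter, was at 0.183 to 0.313 FPKM in the DMSO and 0.866 to 1.42 FPKM in the DADA libraries, with no overlap, and Cd79b, the 1 that passed, at 2.42 to 3.47 and 2.18 to 2.90 FPKM. Plasmacytoid dendritic cell markers summed to 12.1 to 15.2 and 15.2 to 17.3 FPKM, with 2 of 7 called higher (Tcf4 and Runx2). Pacsin1 also passed the filter and was lower on average after DADA, but was not called (log2 -0.21, adjusted p = 0.174 by limma). Klk1 was at 0 in every library, and Siglech, Ccr9 and Flt3 stayed at or under 0.0467 FPKM. Endothelial markers summed to 12.01 to 13.4 and 14.6 to 15.8 FPKM, with 1 of 6 called higher (Pecam1) and Cdh5 and Cldn5 at 0. CD4 T and NK cell markers summed to at most 0.855 FPKM in any library, and none of 6 passed the filter. Over all genes tested, 30.9% were called higher and 35.3% lower with DADA. The part of these cell types in the members' differences was not tested.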

How the data were processed

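RNA sequencing of 4 DMSO and 4 DADA libraries gave 1 FPKM value per gene and library, which the authors deposited as a table of 22520 rows. The submitters' processing notes list HISAT2 2.0.5, StringTie 1.3.3 and the builds GRCh38 (human) and GRCm39 (mouse), with no role or order. GRCm39 was taken as the build of this mouse table. FPKM divides by transcript length and library size, so a low value can be a fraction of an estimated fragment, and fragments shared by close paralogs can be split between them.

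The depth is not given, and the worth of 1 fragment was estimated from low values of 3521 genes with a single transcript in GENCODE M21. It gave 13.7 to 16.2 M fragments for DMSO and 15.1 to 18.5 M for DADA. Since 45.7% to 54.4% of those values lay within 0.1 of a whole number, where chance gives 20%, no count test was run.

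Genes with at least 1 FPKM in at least 4 of the 8 libraries (10666) were analysed as log2(FPKM + 1) with limma 3.58.1 in R 4.3.3 (lmFit, eBayes with a trend, Benjamini-Hochberg over all genes, calls at an adjusted p under 0.05). With a pseudocount of 1, log2 differences of low genes are understated. On simulated data for this comparison over 10666 genes with 200 changed, the fit called 97 of 100 genes changed by 1 and 84 of 100 changed by 0.5 on the log2 scale, with 5 false calls. The simulation shuffled the spread between libraries across genes and changed far fewer genes than were called in the data. Its rates therefore need not hold for the data. Lists are described by counts and medians, without a set test. Named are all members, up to 2 called genes with the largest increase and 2 with the largest decrease per list among genes that averaged 1 FPKM or more, and the 2 genes most like each member that passed the filter. Plaur, Ly6g, Plac8l1, Cnfn, Lypd6b, Cd59a and the cell type markers were named beyond this rule after their values were seen. Members and lists were chosen with earlier results of these data known. Alternatives were pseudocounts, filters, scalings, the trend, a replicate block and leaving out each library. Transcript windows and open reading frames came from GENCODE M21 and promoters from RefSeq, both matched by symbol. Gene coordinates of the table's own build were not used here, and 2 genes that these rules would name are not reported here.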

Additional observations from a re-analysis of the deposited data

Results flagged for a closer look

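Among 66 groups of 4 libraries examined, 6 held a library whose gap to the nearest other library was a larger part of the group's range than Dixon's 95% critical value allows, where chance gives about 1 in 20. For Ly6c2, DMSO 1 (82.8 FPKM) stood above the other DMSO libraries (78.5 to 79.0 FPKM), with a gap of 0.879 of the range. For Ly6d, DADA 3 (0.175 FPKM) was the single DADA library above 0, a gap of 1, which rests on about 1.97 estimated fragments. For Pigw, DADA 1 (3.21 FPKM) was below the other DADA libraries (3.74 to 3.81 FPKM, gap 0.873). For Izumo1r, DMSO 1 (33.7 FPKM) was above the other DMSO libraries (29.3 to 29.8 FPKM, gap 0.883). For Usp18, DADA 2 (31.8 FPKM) was above the other DADA libraries (29.9 to 30.2 FPKM, gap 0.861). For Grina, DMSO 4 (26.6 FPKM) was below the other DMSO libraries (30.2 to 30.9 FPKM, gap 0.834). In each of these genes except Ly6d the groups did not overlap with the outlying library included.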

How the results depend on the processing

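Of 576 values recomputed under the alternatives, 559 stayed the same, 17 moved and none changed sign while called. For a member this means a move within the spread between libraries, for a count one within 1.5 times, and for another named gene only the same direction and call, so sizes could differ: Usp18 (4.27) was at 5.41 with a pseudocount of 0.1 and 4.87 after rescaling to TPM, and Cd24a (2.54) at 2.86 and 2.75. The filters, the trend and the replicate block cannot alter a member's log2 difference, so those values were the same by construction. Rescaling to TPM moved 3 of the 4 abundant members, to log2 differences of 0.81 for Ly6c2, -0.37 for Ly6e and 2.57 for Plac8. Quantile normalization gave -0.35 for Ly6e. Ly6k, which was not called, went from 0.15 to -0.09 under quantile normalization. Of the members under the filter, Ly6c1 (1.16) was at 3.31 with a pseudocount of 0.1 and 1.86 after rescaling to TPM, Ly6i (0.49) at 1.79 and 0.88, and Ly6d (-0.03) at -0.32 with a pseudocount of 0.1. Leaving out each library gave 1.48 to 1.52 for Ly6a, 0.76 to 0.79 for Ly6c2, -0.41 to -0.39 for Ly6e and 2.51 to 2.54 for Plac8. For the other LU-domain genes the number called higher was 0 to 1 when single libraries were left out (Plaur, without DMSO 2), and the number called lower was 2 with no filter (Lypd6b and Cd59a) and 1 after rescaling to TPM. The GPI anchor synthesis genes called higher numbered 4 at a mean of at least 5 FPKM, where fewer genes were tested. The other GPI-anchored surface proteins called lower numbered 4 with no filter, 1 at a mean of at least 5 FPKM and 4 under quantile normalization. The cause of these moves was not tested, other than the filters' own change in the genes tested.

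Libraries share replicate numbers across the groups, but same-numbered libraries correlated at 0.10, -0.12, -0.09 and 0.08 in their deviations. No DMSO library correlated best with the DADA library of its own number, so the numbers were not taken as pairs. With a replicate block, 3251 genes were called higher and 3744 lower, beside 3296 and 3768 without it. In this balanced design the block cannot alter a log2 difference. The estimated depth of 13.7 to 18.5 M fragments limits Ly6c1, Ly6i and Ly6d, which rest on 0 to 27.7 estimated fragments per library.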

Other observations

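Lypd6b and Cd59a, other LU-domain genes under the filter, had lower values with DADA. Lypd6b was at 0.810, 0.684, 0.642 and 0.663 FPKM under DMSO, against 0.498, 0.300, 0.576 and 0.355 FPKM under DADA, with no overlap. Cd59a, which encodes an inhibitor of the complement attack complex, was at 0.408, 0.314, 0.223 and 0.484 FPKM with DMSO and at 0.239, 0.244, 0.0562 and 0 FPKM with DADA, with overlap between the groups.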
